A study of Homo sapiens with 12 samples.

Results

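Human chromosome 8 contributed 431 genes to these data. They are the genes that the GENCODE 29 annotation places on chromosome 8 and that had at least 120 reads summed over the 12 libraries, taken from 57905 gene identifiers in the count table, 2158 of which lie on the chromosome. The chromosome was selected on the fold changes of both treatments, in which its genes as a body stood lower, so that the level of the whole chromosome is given below as a description with no test. What that choice did not use is where along the chromosome the lower level lay, whether it covered both arms, which gene groups took part, and where the drug and the guide differed. Counts of low windows, segments and listed genes still carry the chosen level and are descriptions. Of the 431 genes, 142 lie on the short arm and 289 on the long arm, 361 are protein coding and 41 are annotated as antisense transcripts.

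QuantSeq libraries, which count polyadenylated transcripts by reads from their 3′ ends, were made from OCI-AML3, a widely used human line derived from acute myeloid leukaemia. There were 4 groups of 3 libraries. SA cells received SA at 500 µM for 6 days and vehicle cells received vehicle alone. SA is not spelled out in the labels; in heme research it commonly denotes succinylacetone, which blocks ALAD. sgALAS1 cells carried a guide RNA against ALAS1, which catalyses the step that limits heme production in most tissues, and sgSCR cells a scrambled guide, with doxycycline given to both for 7 days to switch the guide on. All groups share the OCI-AML3 background, and only the guide groups carry the guide vector and received doxycycline. The labels do not say whether libraries of a group came from separate cultures, so that p-values measure the spread between these libraries, which may be technical. They also do not say whether the guide cells were a clone or a pool, and a guide cuts DNA without removing the transcript, so that reads from the 3′ end do not measure editing.

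Chromosome 8 is a mid-sized human autosome with genes of many unrelated functions. It carries MYC, the transcription factor that drives growth and ribosome production, on its long arm, and extra copies of the chromosome are among the most frequent gains in myeloid leukaemia. The published karyotype of OCI-AML3 includes a gain of chromosome 8. Genes that lie next to each other usually have separate promoters, and a level that moves over a whole arm is therefore read as a profile over many genes rather than from a few of them.

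The libraries held 4658513 to 7339843 assigned reads, and mitochondrial transcripts took 11.4 to 15.2% of them. ALAS1 stood at 38.6, 42.0 and 37.4 CPM (normalised for library depth and composition) in sgSCR and at 26.2, 26.4 and 27.3 CPM in sgALAS1, and at 31.1 to 37.5 CPM in vehicle and 102 to 111 CPM with SA. All 8 genes listed as myeloid markers were detected, although MPO was low at 1.55 to 4.97 CPM. Their summed level was 2364 to 2760 CPM in vehicle, 3266 to 3639 CPM with SA, 2197 to 2399 CPM in sgSCR and 2954 to 3171 CPM in sgALAS1. LYZ, the lysozyme gene, went from 501 to 646 CPM in vehicle to 1358 to 1615 CPM with SA and from 296 to 370 CPM in sgSCR to 955 to 1099 CPM in sgALAS1 and made up most of these rises, while MPO, CSF3R and NPM1 were not higher with SA. NPM1 was the largest part of the control sums, at 1051 to 1470 CPM in vehicle and 1028 to 1313 CPM in sgSCR. It stood at 919 to 1164 CPM with SA and 947 to 1189 CPM in sgALAS1. The sums therefore do not describe myeloid genes as a body. Among 12 markers of lymphoid, erythroid, epithelial and stromal cells, CD3E and HBB were at 0 and only CD3D and COL1A2 reached the read minimum. The 12 summed to 18.8 to 22.6 CPM in vehicle, 3.30 to 8.36 CPM with SA, 6.37 to 8.27 CPM in sgSCR and 3.10 to 6.36 CPM in sgALAS1. CD3D stood at 12.2 to 15.4 CPM in vehicle and 0.583 to 1.135 CPM with SA. It stood at 4.18 to 5.62 CPM in sgSCR and at 0 in each sgALAS1 library. COL1A2 went the other way with the guide, from 0.199 to 2.09 CPM in sgSCR to 2.88 to 5.45 CPM in sgALAS1. With SA its libraries overlapped those of vehicle. Both marker sums thus moved with the treatments, and their part in the results below was not tested. In bulk RNA, fewer cells of a kind and less RNA per cell cannot be told apart.

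Chromosome 8 genes took a smaller share of the reads in every treated library. Their share of the reads from genes with a known chromosome, mitochondrial genes left out, was 5.61, 5.35 and 5.24% in vehicle and 4.56, 4.47 and 4.63% with SA. In the guide experiment it was 5.71, 5.65 and 5.12% in sgSCR and 4.36, 4.36 and 4.42% in sgALAS1. No treated library reached the lowest control library in either experiment.

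With SA, 82 of the 431 members were lower than in vehicle and 4 were higher at an adjusted p under 0.05 in edgeR's quasi-likelihood test, adjusted over all 13832 genes tested. Among all tested genes the shares were 6.24% lower and 4.83% higher, against 19.0% and 0.928% of the members. A log2 fold change below 0 was found for 336 members (78.0%, and 51.0% of all tested genes). The 3 SA libraries lay below all 3 vehicle libraries for 153 members (35.5%, background 14.8%) and above them for 26 (6.03%, background 12.6%). The median log2 fold change of the members was -0.26, with the middle of the distribution running from -0.52 to -0.04 (quartiles), beside a median of 0.00 over 11742 genes of the other autosomes, with quartiles of -0.26 and 0.26.

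With sgALAS1, 106 members were lower than in sgSCR and 9 were higher. Among all tested genes 6.85% were lower and 4.88% higher, against 24.6% and 2.09% of the members. A log2 fold change below 0 was found for 340 members (78.9%, background 50.3%). The 3 sgALAS1 libraries lay below all 3 sgSCR libraries for 169 members (39.2%, background 15.5%) and above them for 16 (3.71%, background 13.6%). The median was -0.33 with quartiles of -0.63 and -0.05, beside 0.01 for the other autosomes. These shares describe the level on which the chromosome was chosen and are no test of it.

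**Figure D1:**
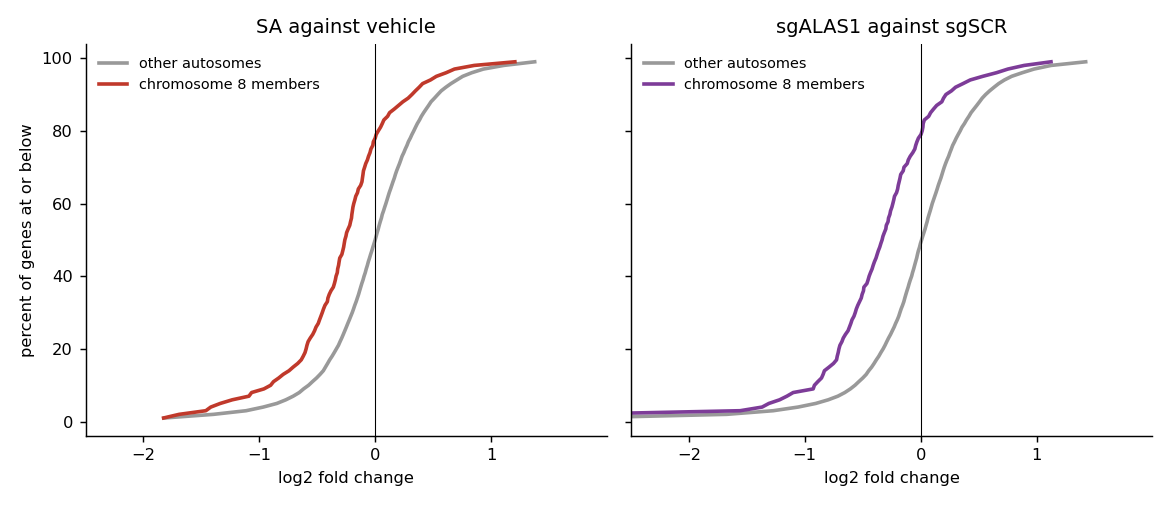
Share of genes (vertical axis, percent) at or below each log2 fold change (horizontal axis) for the 431 chromosome 8 members (coloured) and 11742 genes of the other autosomes (grey), for SA against vehicle (left) and sgALAS1 against sgSCR (right). The coloured curve lies to the left of the grey one through most of its height in both panels: the medians are -0.26 and -0.33 for chromosome 8 and 0.00 and 0.01 for the other autosomes.

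In the plot of cumulative shares the whole middle of the distribution is displaced, and not its tail alone. The members were split by their mean level into 144 low (1.68 to 13.1 CPM), 143 middle (13.1 to 43.8 CPM) and 144 high genes (44.3 to 3366 CPM). Their median log2 fold changes were -0.24, -0.26 and -0.27 with SA and -0.43, -0.26 and -0.32 with sgALAS1. The lower level was present in each class. From the low to the high genes, 16, 22 and 44 members were called lower with SA and 15, 34 and 57 with sgALAS1. The share called among all genes of the same level is not given, so the rise in calls is not read as a trait of the members. Protein-coding members had medians of -0.25 and -0.32, and the 70 members of other types, mostly antisense and long non-coding RNAs, -0.33 and -0.41.

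Each library was then placed by the median, over the members, of its log2 CPM deviation from the mean of the 4 groups. The vehicle libraries stood at 0.16, 0.15 and 0.15 and the SA libraries at -0.14, -0.13 and -0.11. The sgSCR libraries stood at 0.24, 0.19 and 0.09 and the sgALAS1 libraries at -0.15, -0.17 and -0.19. Control and treated libraries did not overlap in either experiment, and all 6 control libraries were above all 6 treated ones. The sgSCR libraries spread more than the vehicle libraries, with replicate 3 the nearest to the treated groups.

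Of the 22 autosomes, chromosome 8 had the second lowest median in both experiments. Chromosome 13, with 218 genes, was lower, at -0.38 with SA and -0.35 with sgALAS1. The medians of the other 20 autosomes lay between -0.15 (chromosome 6) and 0.10 (chromosome 19) with SA and between -0.16 (chromosome 6) and 0.12 (chromosome 5) with sgALAS1. Between the control groups, sgSCR against vehicle, chromosome 8 had a median of 0.04 and ranked 20 from the lowest, 193 members (44.8%) were below 0 beside 49.1% of all tested genes, and 3 members passed the test as lower (BNIP3L, ZNF395 and ANGPT1; 0.962% of all tested genes were) and 3 as higher (CA2, CCDC26 and MINCR; 0.47%), where 1.43% of all tested genes passed either way. This comparison shares vehicle with the SA comparison and sgSCR with the guide comparison, so that the 3 are set side by side only.

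**Figure D2:**
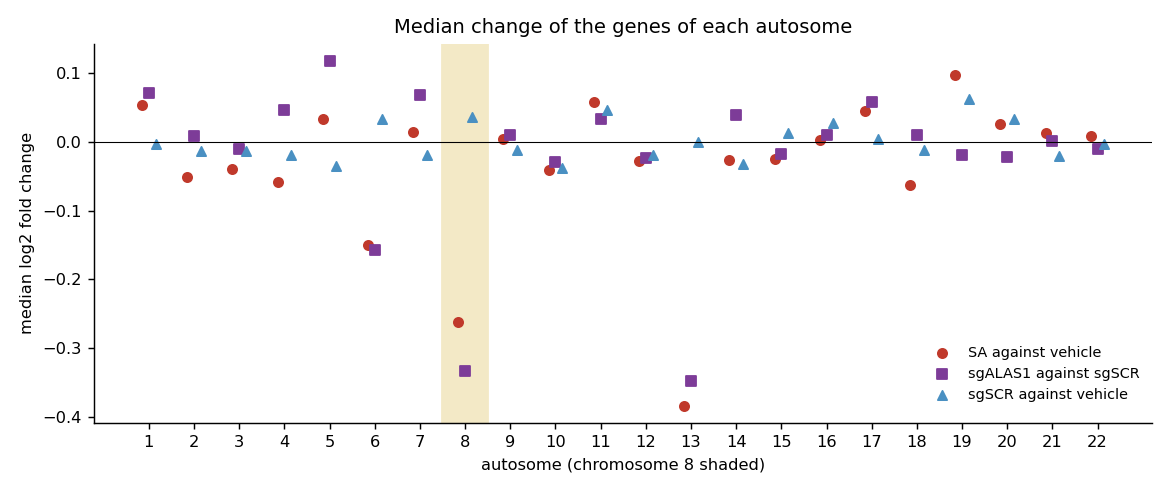
Median log2 fold change (vertical axis) of the genes of each autosome (horizontal axis) with at least 120 reads, for SA against vehicle (circles), sgALAS1 against sgSCR (squares) and sgSCR against vehicle (triangles). Chromosome 8, shaded, sits at -0.26 and -0.33 for the treatments and at 0.04 between the controls; chromosome 13 alone is lower.

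The members called lower were partly shared between the experiments, which have no library in common. There were 49 members lower in both (11.4%, background 2.97%), which is 59.8% of the SA list and 46.2% of the sgALAS1 list. Among all tested genes, 411 were lower in both, of 863 lower with SA and 947 lower with sgALAS1. By these counts a large part of each list was also shared over all genes. The chromosome was itself chosen on being lower in both comparisons. A fold change below 0 in both was found for 291 members (67.5%, background 33.3%) and above 0 in both for 46 (10.7%, background 32.0%). PLEC and GRINA were the only 2 members called higher in both (background 1.78%), and no member was called in opposite directions (0.00723% of all tested genes were lower with SA and higher with sgALAS1, and 0.0217% the reverse).

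The lower level was found on both arms in both experiments. Stretches near 0 lay on both arms with SA and on the long arm only with sgALAS1. A moving median over 31 consecutive members, computed within each arm, was below 0 in 371 of 371 windows with sgALAS1 and in 369 of 371 with SA. With sgALAS1 it ranged from -0.63 on the short arm, centred just before PLEKHA2, to -0.15 on the long arm, centred on TMEM64. With SA it ranged from -0.54, centred on LRP12 on the long arm, to 0.01 on the short arm, in the stretch of BMP1 to ENTPD4. Between the control groups, 102 of 371 windows were below 0, and the moving median stayed between -0.15 and 0.22. Neighbouring windows share most of their members, and the counts for the treatments carry the level on which the chromosome was chosen.

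**Figure D3:**
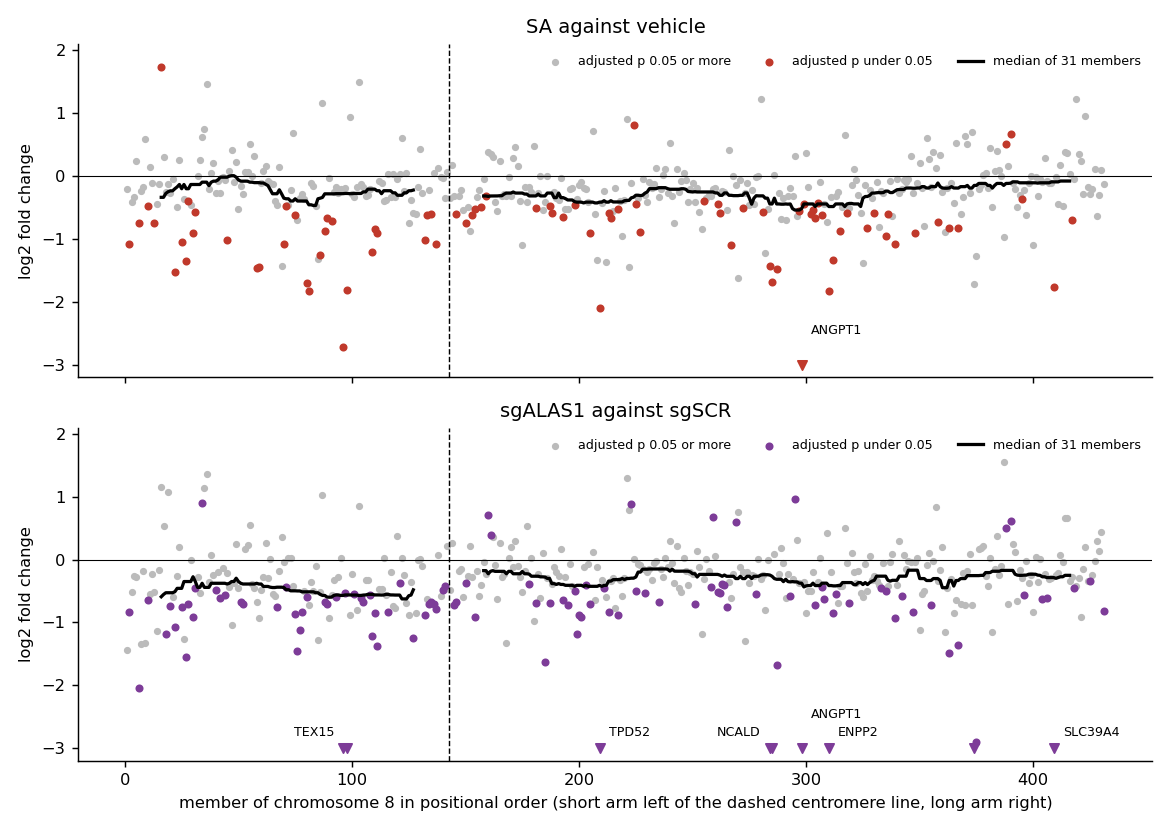
Log2 fold change (vertical axis) of the 431 members in positional order (horizontal axis) for SA against vehicle (top) and sgALAS1 against sgSCR (bottom); coloured points have an adjusted p under 0.05, triangles mark values below -3 drawn at -3, the black line is the median of 31 consecutive members and the dashed line the centromere. The black line is below 0 in 369 of 371 windows at the top and in all 371 at the bottom.

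The arms were compared within each library, as the median over the long arm minus the median over the short arm, a quantity that a uniform shift of the chromosome leaves unchanged. It was -0.09, 0.01 and -0.05 in vehicle and -0.08, -0.02 and -0.01 with SA. The SA and vehicle libraries overlapped, with a treated minus control difference of 0.00 (exact permutation test, two-sided, p = 0.9). Leaving out vehicle replicate 1 (-0.02), SA replicate 2 (0.00 to 2 decimals, below 0) or SA replicate 3 (-0.01) turned its sign. The arm medians with SA were -0.23 on the short arm (31 members lower, 1 higher) and -0.27 on the long arm (51 lower, 3 higher).

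In the guide experiment the short arm stood lower than the long arm. The same quantity was -0.10, -0.01 and -0.05 in the sgSCR libraries and 0.09, 0.13 and 0.12 in the sgALAS1 libraries, which did not overlap. The difference was 0.17 on the log2 scale (exact permutation test, two-sided, p = 0.1, the smallest that 3 libraries against 3 allow; 0.15 adjusted over the 3 arm tests). The short arm had a median of -0.50 with 46 of 142 members lower and 1 higher, and the long arm a median of -0.28 with 60 of 289 lower and 8 higher. Over both experiments together the mean difference was 0.09 (exact permutation test within experiments, 400 regroupings, p = 0.045, adjusted p = 0.135). This mean combines 0.00 with SA and 0.17 with sgALAS1. Without vehicle replicate 2 the mean was 0.10 with an adjusted p of 0.045 by the same exact test. With any other library left out it did not pass (adjusted p = 0.09 to 0.15).

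For a finer view the members were divided into 21 segments of 20 or 21 consecutive genes, 7 on the short arm and 14 on the long arm. In 18 of the 21 segments every sgALAS1 library lay below every sgSCR library, in 7 of 7 on the short arm and 11 of 14 on the long arm. With SA the same held for 14 segments, 6 of 7 on the short arm and 8 of 14 on the long arm. Among 586 segments of the same size on the other autosomes the shares were 16.4% and 15.2%. The segments are parts of a chromosome chosen for its lower level, so that their excess over these shares is no test. The 14 segments with SA were all among the 18, and no segment was higher in a treated group. Between the control groups, 0 segments were lower and 3 were higher in sgSCR (7.0% and 7.51% of the other segments were).

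**Figure D4:**
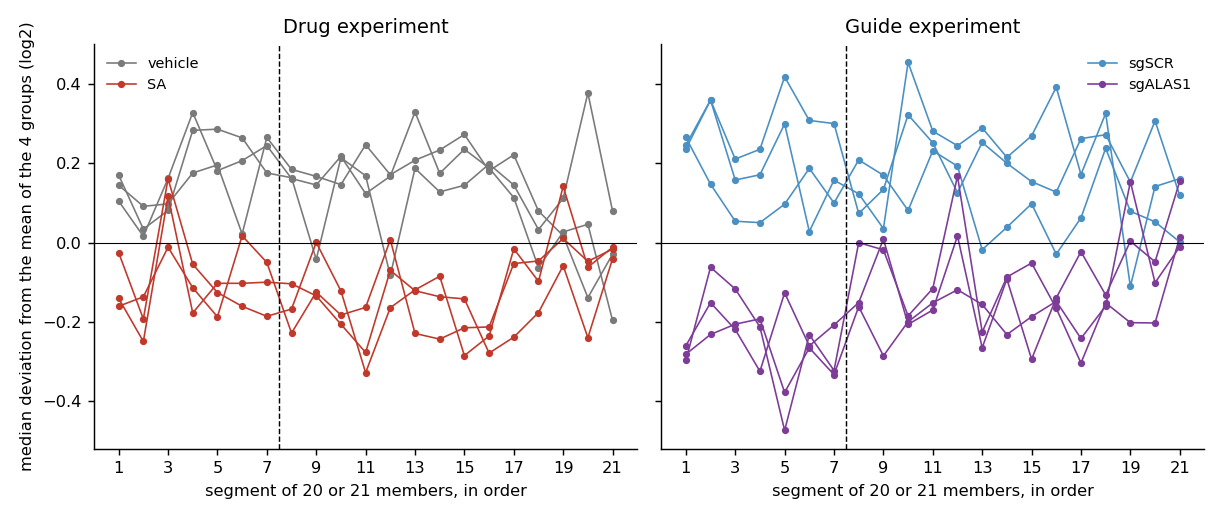
Median log2 deviation (vertical axis) of the members of each of the 21 segments (horizontal axis, numbered from the end of the short arm to the end of the long arm) in each library, for vehicle and SA (left) and sgSCR and sgALAS1 (right); the dashed line is the centromere. Treated libraries lie below control libraries in 14 segments with SA and 18 with sgALAS1, and the lines meet in segments 19 and 21 at the end of the long arm.

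Segment 7 on the short arm, from PLEKHA2 to HGSNAT, had the lowest median with sgALAS1, at -0.60, with 17 of 20 members below 0 and 8 called lower. Its sgSCR libraries stood at 0.30, 0.16 and 0.10 and its sgALAS1 libraries at -0.21, -0.32 and -0.33. With SA the lowest medians were on the long arm, at -0.45 from OSR2 to KLF10, -0.45 from ZC2HC1A to CPNE3 and -0.44 from AZIN1 to ENPP2, the last with 9 of 21 members called lower. From AZIN1 to ENPP2 the vehicle libraries stood at 0.14, 0.27 and 0.24 and the SA libraries at -0.21, -0.14 and -0.29. Control and treated libraries did not overlap in these 4 stretches in the experiment named.

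The groups overlapped in 7 segments with SA and in 3 with sgALAS1. On the short arm this was the segment from BMP1 to ENTPD4 with SA, where the median was -0.01, the SA libraries stood at -0.01, 0.12 and 0.16 and the vehicle libraries at 0.08, 0.10 and 0.16. The same segment had a median of -0.42 with sgALAS1, with no overlap. On the long arm the stretch from RIPK2 to DPY19L4 overlapped in both experiments (-0.13 with SA, -0.15 with sgALAS1), and UBXN2B to VCPIP1 overlapped with SA only (-0.27).

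With SA, the end of the long arm was the longest stretch in which the groups overlapped. In its last 4 segments, from FAM135B to C8orf33, the groups overlapped in 4 of 4 with SA and in 2 of 4 with sgALAS1, the segments from GSDMD to SMPD5 and from ZFTRAF1 to C8orf33. The GSDMD to SMPD5 segment had the highest median in both experiments, at 0.01 with SA and -0.04 with sgALAS1. Over the 80 members of the 4 segments, chosen after their values were seen, the median with SA was -0.11 with 49 below 0, 6 called lower and 2 higher. The SA libraries stood at -0.03, -0.13 and -0.02 there and the vehicle libraries at 0.16, -0.07 and -0.03, which overlap. With sgALAS1 the same 80 members had a median of -0.25, with 12 called lower and 2 higher, and the sgALAS1 libraries (-0.03, -0.17 and -0.05) lay below the sgSCR libraries (0.18, 0.12 and 0.08). Over the other 209 long-arm members the medians were -0.32 with SA and -0.28 with sgALAS1. Between the control groups, sgSCR against vehicle, the 80 members had a median of 0.12 and the 209 one of -0.01. Over the 80 members the sgSCR and vehicle libraries given above overlap, and the part of the controls in the contrast at this end was not tested.

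The members at the ends and at the centromere were examined singly. RPL23AP53, a ribosomal protein pseudogene and the member nearest the end of the short arm, had only 124 reads and did not pass the test in either experiment (-0.20 and -1.44). Next to it, FBXO25, which encodes the substrate-binding part of a ubiquitin ligase, stood at 32.3, 34.4 and 31.7 CPM in vehicle and 14.2, 19.1 and 13.1 CPM with SA. The sgSCR libraries had 24.9, 30.2 and 24.8 CPM and the sgALAS1 libraries 13.7, 13.8 and 17.3 CPM. It fell in both (log2 fold change -1.09, SE 0.19, adjusted p = 0.0002225, and -0.84, SE 0.19, adjusted p = 0.003391), with no overlap between groups. At the other end C8orf33 was lower with sgALAS1 (-0.82, adjusted p = 0.0003218) and had overlapping libraries with SA (-0.13, adjusted p = 0.6707). Its difference between the experiments did not pass (adjusted p = 0.1254). At the centromere, HGSNAT on the short arm, a lysosomal enzyme, had values of 0.06 and 0.21 that did not pass, and SPIDR on the long arm, a DNA repair scaffold, -0.34 and -0.49 that did not pass either.

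The groups of genes below were listed by function with earlier results of these data known, so that their counts are descriptions, to be read beside the 19.0% and 24.6% of all chromosome 8 members that were lower. Of 14 lipid and sterol genes among the members, 6 were lower with SA and 9 with sgALAS1, with none higher, and the medians were -0.37 and -0.55. CYP7B1 and LPL, also on the list, were below the read minimum. FDFT1, squalene synthase, which makes the precursor committed to sterols, stood at 345, 291 and 291 CPM in vehicle and 112, 99.9 and 108 CPM with SA. The guide experiment gave 310, 339 and 269 CPM in sgSCR and 145, 154 and 139 CPM in sgALAS1. All treated libraries were below all controls (-1.53, SE 0.12, adjusted p = 2.673e-10, and -1.07, SE 0.12, adjusted p = 6.951e-08). An unnamed transcript overlaps FDFT1 on the opposite strand, and without a stated strand setting the reads of such partners cannot be told apart, which holds for 168 members in all. Among the members described below, FABP5, PLPP5, STAR, ESCO2, GINS4, RAD21, RPL7, RPL30, EIF3E, UQCRB, DERL1, BNIP3L, CA2, WWP1, PSD3, GRINA, NCALD, NAPRT, CPSF1 and EEF1D also overlap another member on the opposite strand. ZNF395, FBXO16, SGK3, MIR3926-1 and ENSG00000272518 overlap one on the same strand.

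SQLE, squalene epoxidase, the next step towards sterols, lies on the other arm. It stood at 118, 128 and 144 CPM in vehicle and 62.9, 64.5 and 73.8 CPM with SA, without overlap (-0.95, SE 0.12, adjusted p = 3.192e-06). With the guides it was at 102, 102 and 106 CPM in sgSCR and 75.9, 66.0 and 78.5 CPM in sgALAS1, also without overlap (-0.49, SE 0.12, adjusted p = 0.007572), and without sgALAS1 replicate 2 this call was lost (adjusted p = 0.05523). STAR, which carries cholesterol into mitochondria, stood at 75.3, 61.8 and 64.9 CPM in vehicle and 37.1, 37.0 and 33.4 CPM with SA (-0.91, adjusted p = 5.961e-05). Levels were 91.2, 77.5 and 71.9 CPM in sgSCR and 31.6, 34.0 and 27.0 CPM in sgALAS1 (-1.37, adjusted p = 4.597e-08). STAR overlaps ASH2L on the opposite strand, a gene also called lower in both. FABP5, LYPLA1 and AGPAT5 were the other list members lower in both. PLPP5, PTDSS1 and ERLIN2 passed with sgALAS1 and not with SA, and the differences between the experiments did not pass (adjusted p = 0.3308, 0.8143 and 0.48).

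All 20 DNA replication and repair genes had values below 0 in both experiments. With SA 3 of them were lower (MCM4, RAD21 and DSCC1) and with sgALAS1 12 were, with medians of -0.32 and -0.53. MCM4, a subunit of the replicative helicase, stood at 230, 193 and 233 CPM in vehicle and 139, 161 and 134 CPM with SA. It stood at 224, 196 and 215 CPM in sgSCR and 137, 148 and 114 CPM in sgALAS1. The groups did not overlap in either experiment (-0.60, SE 0.12, adjusted p = 0.001261, and -0.67, SE 0.12, adjusted p = 0.0002991). Its neighbour PRKDC, the catalytic subunit of the DNA-dependent protein kinase, was lower with sgALAS1 (-0.72, adjusted p = 4.621e-05) and had -0.33 with SA, which missed the threshold (adjusted p = 0.06642) although its libraries did not overlap. For PRKDC the difference between the experiments did not pass (adjusted p = 0.3012). RAD21, a subunit of the cohesin ring, ran at 618 to 675 CPM in vehicle and 382 to 441 CPM with SA (-0.62, adjusted p = 0.0001364), and at 532 to 600 CPM in sgSCR and 386 to 431 CPM in sgALAS1 (-0.43, adjusted p = 0.005056).

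Some other members of the replication list that fell with sgALAS1 had larger changes than MCM4, PRKDC and RAD21, and others, such as WRN, did not. GINS4, another part of the replicative helicase, went from 17.9, 18.3 and 21.5 CPM in sgSCR to 7.10, 7.63 and 9.75 CPM in sgALAS1 (-1.25, adjusted p = 0.0002734). ESCO2, which acetylates cohesin, went from 32.9, 29.1 and 36.2 CPM to 16.7, 17.1 and 10.9 CPM (-1.12, adjusted p = 0.0001577). With SA these 2 genes had -0.59 (adjusted p = 0.08598) and -0.35 (adjusted p = 0.2586), and neither difference between the experiments passed its own test (adjusted p = 0.4124 and 0.2143). DSCC1, which helps load the sliding clamp, fell from 16.5, 21.2 and 24.2 CPM to 7.38, 9.75 and 7.30 CPM with SA (-1.34, adjusted p = 0.0001898). With sgALAS1 it had -0.86 (adjusted p = 0.01111), a call lost without sgALAS1 replicate 2 (adjusted p = 0.06812).

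Of 18 MYC and transcription genes among the members, 3 were lower with SA and 2 with sgALAS1, with medians of -0.26 and -0.20. EGR3 and RUNX1T1 were below the read minimum. MYC stood at 116, 121 and 89.4 CPM in vehicle and at 40.6, 57.3 and 55.8 CPM with SA. In sgSCR it stood at 92.8, 111 and 89.3 CPM and in sgALAS1 at 58.8, 50.3 and 44.5 CPM. No treated library reached a control library, and the changes were close in size (-1.09, SE 0.15, adjusted p = 8.659e-06, and -0.92, SE 0.15, adjusted p = 6.752e-05). PVT1, the non-coding gene that follows MYC on the chromosome, had overlapping libraries in both experiments (-0.04 and -0.40, neither past the threshold). MYC thus stood further down than the segment around it, whose medians were -0.23 and -0.27. TCEA1, a transcription elongation factor, was lower with SA (-0.62, adjusted p = 0.002706) and had -0.28 with sgALAS1 (adjusted p = 0.2035). Its difference between the experiments did not pass (adjusted p = 0.5152).

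Of 19 translation and ribosome genes, 5 were lower with SA and 8 with sgALAS1, with medians of -0.31 and -0.35 and none higher. EIF4EBP1, which restrains cap-dependent translation, stood at 105, 86.7 and 57.3 CPM in vehicle and 36.9, 29.1 and 41.5 CPM with SA. It stood at 66.9, 76.2 and 61.3 CPM in sgSCR and 32.7, 24.2 and 31.5 CPM in sgALAS1. The 3 vehicle libraries were widely spread, yet the groups did not overlap and the change was -1.21 in both experiments (SE 0.18, adjusted p = 2.189e-05, and SE 0.18, adjusted p = 2.206e-05). RPL7, a protein of the large ribosomal subunit, ran at 1182 to 1285 CPM in vehicle and 885 to 916 CPM with SA (-0.47, adjusted p = 0.001829), and at 1142 to 1344 CPM in sgSCR and 870 to 924 CPM in sgALAS1 (-0.49, adjusted p = 0.0008033). RPL7 and the other ribosomal protein genes, and VDAC3 and UQCRB below, have processed copies elsewhere in the genome, and the handling of multi-mapping reads is not stated, so that their values are uncertain. The most abundant member, RPL30, had 237141 reads, and RPL30-AS1, annotated at the same place, 225286, so that these 2 are nearly 1 measurement.

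PABPC1, which binds the poly(A) tail, was lower with sgALAS1 (-0.55, adjusted p = 0.003894), with -0.02 and overlapping libraries with SA (adjusted p = 0.9575), and the difference itself did not pass (adjusted p = 0.1875). EIF3E, a subunit of the initiation factor that recruits the small ribosomal subunit, had -0.44 with SA (adjusted p = 0.01626). Leaving out SA replicate 1, SA replicate 3 or vehicle replicate 2 ended that call (highest adjusted p = 0.1458), and with sgALAS1 EIF3E had -0.35 (adjusted p = 0.06011).

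Of 18 mitochondrial genes, 5 were lower with SA and 6 with sgALAS1, and 1, CHCHD7, was higher with sgALAS1. The medians were -0.28 and -0.25. VDAC3, a channel of the outer mitochondrial membrane, stood at 149, 134 and 172 CPM in vehicle and 102, 100.1 and 97.3 CPM with SA (-0.60, adjusted p = 0.0009183). It stood at 146, 139 and 154 CPM in sgSCR and 82.6, 98.5 and 94.2 CPM in sgALAS1 (-0.68, adjusted p = 0.0002136). It was the only gene of this list called lower in both. CYC1, the cytochrome c1 subunit of complex III, which carries heme, went from 362, 344 and 325 CPM in sgSCR to 247, 220 and 232 CPM in sgALAS1 (-0.56, adjusted p = 0.001466). With SA its libraries overlapped (-0.22, adjusted p = 0.2523), and the difference between the experiments did not pass its own test (adjusted p = 0.4268). UQCRB, another complex III subunit, was lower with SA (-0.39, adjusted p = 0.01534), a call that leaving out the same 3 libraries ended (highest adjusted p = 0.1121). SLC25A37, mitoferrin-1, which brings iron into mitochondria for heme synthesis, had -0.08 and -0.30 and did not pass in either (adjusted p = 0.774 and 0.1659).

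Of 15 protein folding and ubiquitin genes, all 15 were below 0 with SA and 13 with sgALAS1, with 4 and 2 called lower and medians of -0.40 and -0.24. TRAM1, which helps proteins enter the endoplasmic reticulum, ran at 83.8 to 106 CPM in vehicle and 54.7 to 64.9 CPM with SA (-0.65, adjusted p = 0.002375), and at 79.2 to 109 CPM in sgSCR and 58.9 to 70.5 CPM in sgALAS1 (-0.64, adjusted p = 0.00202). DERL1, part of the machinery that exports misfolded proteins, was lower with SA (-0.59, adjusted p = 0.01175) unless SA replicate 1, SA replicate 3 or vehicle replicate 3 was left out (highest adjusted p = 0.1414). Of 13 lysosome and vesicle genes 2 were lower in each experiment, LAPTM4B and TPD52, with medians of -0.11 and -0.25, and ATP6V0D2 and CHMP4C were below the read minimum.

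Of 13 immune and myeloid signalling genes among the members, 1 was lower in each experiment, IKBKB with SA and PAG1 with sgALAS1, and the medians were -0.11 and 0.02. A further 7 genes of that list were below the read minimum. IKBKB, a kinase that activates NF-κB, had -0.62 with SA (adjusted p = 0.04775) with overlapping libraries, and PAG1, an adaptor of Src-family kinases, -0.45 with sgALAS1 (adjusted p = 0.03148). Each call was lost when any 1 of 4 libraries was left out, with adjusted p-values of up to 0.2154 for IKBKB (vehicle replicates 1 and 2, SA replicates 2 and 3) and up to 0.1625 for PAG1 (sgSCR replicates 1 and 2, sgALAS1 replicates 2 and 3). With sgALAS1 IKBKB had -0.63 without overlap and narrowly missed the threshold (adjusted p = 0.0504). PAG1 had -0.24 with SA (adjusted p = 0.2848). Neither difference between the experiments passed its own test (adjusted p = 0.9976 and 0.7407).

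Metal transport had 3 members, with SLC30A8 and LOXL2 below the read minimum. SLC39A14, an importer of zinc, iron and manganese, stood at 38.4, 50.1 and 46.9 CPM in vehicle and 17.1, 31.4 and 18.2 CPM with SA (-1.02, adjusted p = 0.003074). In sgSCR it stood at 21.3, 32.6 and 33.4 CPM and in sgALAS1 at 26.7, 32.7 and 15.96 CPM, which overlap (-0.21, adjusted p = 0.6448). The difference between the experiments, 0.82, did not pass its own test (adjusted p = 0.2859). The sgSCR libraries were already below the vehicle libraries (-0.62, adjusted p = 0.1943).

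A small number of members were close to absent in sgALAS1 and at intermediate levels with SA. TPD52, which takes part in vesicle traffic, stood at 54.9, 30.3 and 32.6 CPM in vehicle and 10.5, 9.35 and 7.94 CPM with SA. In sgSCR it stood at 60.2, 45.2 and 33.4 CPM and in sgALAS1 at 3.40, 1.09 and 0.665 CPM. It fell by 2.09 (SE 0.27, adjusted p = 3.312e-06) and by 4.63 (SE 0.34, adjusted p = 2.061e-11) on the log2 scale. ENPP2, the secreted enzyme autotaxin that makes lysophosphatidic acid, stood at 34.6, 42.1 and 34.7 CPM in vehicle and 10.9, 11.5 and 8.92 CPM with SA, and at 40.04, 36.0 and 26.9 CPM in sgSCR and 0, 0.545 and 1.11 CPM in sgALAS1. Its SA change was -1.83 (adjusted p = 2.959e-06). In each of these genes the order from high to low was control, SA, sgALAS1, with no overlap.

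NCALD, a neuronal calcium sensor, stood at 19.3, 19.97 and 16.3 CPM in vehicle and 5.44, 5.17 and 9.73 CPM with SA (-1.43, adjusted p = 0.0009116). It had 160, 135 and 125 reads in sgSCR and 0, 2 and 0 in sgALAS1, a ratio of 200.4 with an exact 95% interval of 55.1 to 1660 that covers counting error only. SLC39A4, the zinc importer ZIP4, stood at 39.6, 20.1 and 24.1 CPM in vehicle and 10.9, 6.56 and 7.30 CPM with SA (-1.77, adjusted p = 6.031e-05). It had 264, 201 and 209 reads in sgSCR and 0, 3 and 0 in sgALAS1, a ratio of 214 (73.0 to 1042). ENSG00000253629, which overlaps NCALD on the opposite strand, had 190 reads in sgSCR and 0 in sgALAS1 and was at least 60.4-fold lower, taking 3 reads over the group as the floor.

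TEX15 and ANGPT1, named after their values were seen, had the largest falls with SA. TEX15, a germ-line gene, stood at 11.9, 6.26 and 13.1 CPM in vehicle and 1.75, 2.59 and 0.486 CPM with SA, and at 9.16, 9 and 4.63 CPM in sgSCR and 0.926, 0 and 0 CPM in sgALAS1 (-2.72, adjusted p = 0.0009868, and -4.33, adjusted p = 3.816e-05). ANGPT1, a ligand of the TIE2 receptor, stood at 35.4, 24.9 and 22.3 CPM in vehicle and 0.777, 1.19 and 0.973 CPM with SA (-4.79, adjusted p = 6.021e-10). In sgSCR it was at 15.7, 15.4 and 7.94 CPM, lower than in vehicle (-1.09, adjusted p = 0.04308), and in sgALAS1 at 1.70, 1.82 and 0.443 CPM (-3.22, adjusted p = 2.905e-07).

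The genes beside these deep falls changed less, with some exceptions. TEX15 and the unnamed transcript ENSG00000247134, which fell by 1.81 with SA (adjusted p = 0.03588) and 4.42 with sgALAS1 (adjusted p = 8.619e-05), flank WRN, which had -0.20 with SA and -0.53 with sgALAS1 (adjusted p = 0.4639 and 0.01882). ZBTB10, beside TPD52, had -0.43 and -0.32, and RRM2B, which follows NCALD and its partner, 0.01 and 0.09, none past the threshold. EXT1 and TAF2, on either side of ENPP2, did not pass in either experiment, nor did CPSF1 and VPS28, on either side of SLC39A4. The neighbours of ANGPT1, OXR1 and EIF3E, were lower with SA by the test, at -0.56 and -0.44. NAPRT, which makes NAD from nicotinic acid, and the unnamed transcript ENSG00000255050 fell together with sgALAS1 (-2.90, adjusted p = 0.0001258, and -4.29, adjusted p = 0.0002266), while GSDMD and EEF1D nearby did not pass. ENSG00000255050 overlaps NAPRT on the opposite strand, so that the 2 may partly count the same reads.

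KBTBD11 and SGK3 fell mainly with sgALAS1. KBTBD11, near the end of the short arm, stood at 32.3, 29.6 and 20 CPM in sgSCR and 4.94, 7.81 and 7.31 CPM in sgALAS1 (-2.04, SE 0.25, adjusted p = 4.944e-07). With SA it had -0.75 (adjusted p = 0.03864), a call lost when any 1 library other than vehicle replicate 3 was left out (highest adjusted p = 0.1582). SGK3, a kinase of the AKT-related SGK family, stood at 39.4, 36.3 and 19.2 CPM in sgSCR and 10.2, 7.996 and 12.4 CPM in sgALAS1 (-1.64, adjusted p = 1.037e-05) and had -0.41 with SA (adjusted p = 0.2746). The difference between the experiments missed the threshold for both (adjusted p = 0.06183 and 0.06297).

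The members that rose are read against the lower level around them. GRINA, a membrane protein of the TMBIM family that protects from cell death, stood at 112, 94.3 and 92.4 CPM in vehicle and 158, 151 and 163 CPM with SA (0.66, SE 0.12, adjusted p = 0.0004528). It stood at 97.6, 88.2 and 97.7 CPM in sgSCR and 148, 122 and 162 CPM in sgALAS1 (0.61, SE 0.12, adjusted p = 0.001004). PLEC, which encodes the cytoskeletal linker plectin and lies close by, had 0.50 in both (adjusted p = 0.02749 and 0.02841). Its SA call was lost when any 1 of 4 libraries was left out (vehicle replicates 2 and 3, SA replicates 1 and 3; highest adjusted p = 0.1685) and its sgALAS1 call when any 1 library other than sgALAS1 replicate 2 was (highest adjusted p = 0.1493). Both genes lie in the segment from GSDMD to SMPD5, the one with the highest median in each experiment. GRINA overlaps PARP10 on the chromosome.

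WWP1, a ubiquitin ligase, rose with SA, from 35.7, 43.0 and 47.1 CPM to 66.6, 62.5 and 91.4 CPM (0.82, adjusted p = 0.0006162). In the guide experiment its libraries overlapped (0.01, adjusted p = 0.9742), and the difference between the experiments had an adjusted p of 0.0733. MIR124-1HG, a microRNA host transcript of few reads, was the remaining member higher with SA (1.73, adjusted p = 0.01147).

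With sgALAS1, LRP12, a receptor of the low-density lipoprotein receptor family, rose from 12.6, 14.8 and 18.0 CPM to 34.0, 24.4 and 29.9 CPM (0.96, adjusted p = 0.002089). It lies at the centre of the window where the moving median with SA was lowest, and had 0.32 with SA (adjusted p = 0.3709). PSD3, PLAG1, SDC2, CHCHD7 and OSR2 were higher by 0.90, 0.71, 0.67, 0.39 and 0.60. Of the first 3, the calls of PSD3 (sgSCR replicates 2 and 3, sgALAS1 replicate 3), PLAG1 (sgSCR replicates 2 and 3, sgALAS1 replicates 1 and 3) and SDC2 (sgSCR replicate 3, sgALAS1 replicates 1 and 2) were lost when the libraries in brackets were left out in turn, with highest adjusted p-values of 0.1124, 0.09782 and 0.05861.

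**Figure D5:**
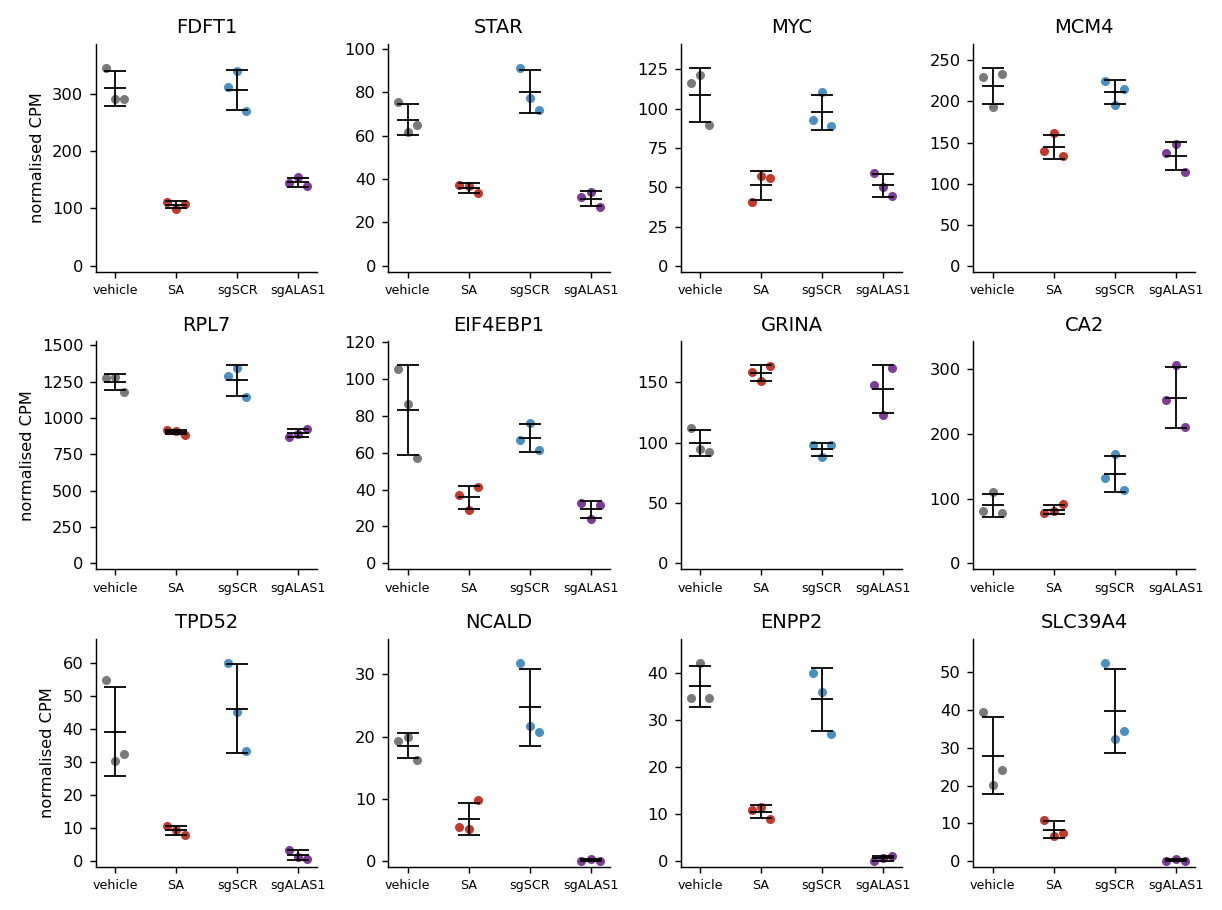
Level (vertical axis, normalised CPM, each panel from 0 to its own maximum) of 12 members in the 3 libraries of each group (points), with the mean and SD (bars). FDFT1, STAR, MYC, MCM4, RPL7 and EIF4EBP1 are lower in both treated groups, GRINA is higher in both, CA2 is higher in sgALAS1 at 211 to 306 CPM, and TPD52, NCALD, ENPP2 and SLC39A4 are lower with SA and near 0 in sgALAS1.

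The effects of the drug and the guide differed, by the test of the difference, at 9 members (2.09%, and 1.19% of all tested genes). At 5 the sgALAS1 value was the lower one (background 0.759%) and at 4 the higher one (background 0.427%). The 5 were TPD52, NCALD, its opposite-strand partner, ENPP2 and SLC39A4, the nearly absent genes above. The 4 were BNIP3L, ZNF395, NDRG1 and CA2. BNIP3L, a receptor for the removal of mitochondria known for its part in red cell maturation, stood at 93.5, 114 and 96.1 CPM in vehicle and 51.3, 50.9 and 41.8 CPM with SA (-1.08, adjusted p = 1.29e-05). In sgSCR it stood at 48.8, 72.8 and 48.6 CPM and in sgALAS1 at 49.9, 54.0 and 62.3 CPM (-0.04, adjusted p = 0.9122). The sgSCR libraries were thus already below vehicle (-0.83, adjusted p = 0.002285), and the difference of the effects was 1.04 (adjusted p = 0.008956).

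ZNF395, a zinc finger protein, followed the same order. It stood at 56.0, 70.2 and 57.7 CPM in vehicle and 15.5, 18.3 and 22.5 CPM with SA (-1.70, adjusted p = 8.359e-08), and at 35.7, 46.5 and 32.9 CPM in sgSCR and 24.4, 23.3 and 28.6 CPM in sgALAS1 (-0.60, adjusted p = 0.02295). The sgALAS1 call was lost without sgSCR replicate 2 or sgALAS1 replicate 1 or 2 (highest adjusted p = 0.1946). sgSCR was below vehicle here too (-0.67, adjusted p = 0.03284), and the difference of the effects, 1.10 (adjusted p = 0.01594), was lost without vehicle replicate 2, SA replicate 1 or sgSCR replicate 1 or 3 (highest adjusted p = 0.07971). FBXO16, which overlaps ZNF395 on the same strand, moved alongside it with SA (-1.84, adjusted p = 1.277e-05).

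CA2, a carbonic anhydrase abundant in red cells, was the reverse in the control groups. It stood at 81.0, 110 and 78.0 CPM in vehicle and 77.3, 80.4 and 91.8 CPM with SA, which overlap (-0.11, adjusted p = 0.7417). In sgSCR it stood at 133, 169 and 113 CPM, above vehicle (0.63, adjusted p = 0.02731), and in sgALAS1 at 251, 306 and 211 CPM (0.89, adjusted p = 9.598e-05). The difference of the effects was 0.995 (adjusted p = 0.01072) and was lost without vehicle replicate 2, SA replicate 1 or sgALAS1 replicate 2 (highest adjusted p = 0.06513). NDRG1, a stress-responsive gene, fell with SA (-0.90, adjusted p = 3.193e-05) and had -0.03 with sgALAS1 (adjusted p = 0.9236), with a difference of 0.87 (adjusted p = 0.0134). For MYC, MCM4, RPL7, VDAC3 and EIF4EBP1 the difference of the effects was 0.16, -0.07, -0.03, -0.07 and 0.00, with SEs of 0.21, 0.17, 0.14, 0.17 and 0.26, and did not pass, which does not show that the drug and the guide acted alike on them.

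At the read minimum, the members just inside were ENSG00000272518 and MIR3926-1 with 120 reads and MYBL1 with 123, and the genes just outside were GDAP1 with 119 and ENSG00000246477 and IL7 with 117. The 3 inside had -1.33, -0.36 and 0.00 with SA, and the 3 outside 0.67, -0.28 and 1.04. With sgALAS1 the values were -0.12, -1.26 and -0.61 inside and -0.37, -0.54 and -0.55 outside. Another 662 chromosome 8 identifiers had 1 or more reads below the minimum and 1065 had none.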

How the data were processed

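The 12 QuantSeq libraries were grouped by the labels. HISAT2 2.0.4 (build hg19), Subread 2.0.0 with featureCounts, cutadapt 1.14, bcl2fastq 2.17.1.14, limma 3.48.3 and edgeR 3.34.0 are the tools named per the submitters' processing notes. Annotation release, strand setting and multi-mapping: not given in the sources used here. Raw counts per Ensembl identifier, without normalisation, were deposited by the authors. GENCODE 29 and a gene table gave names, chromosomes and order only, so no coordinates are printed; 5567 of 57905 identifiers had no name or chromosome, and 1 of them took 4.78 to 9.27% of reads.

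An edgeR 4.0.16 model in R 4.3.3 covered the 4 groups (TMM, quasi-likelihood F-test, two-sided) on 13832 genes passing filterByExpr or 120 reads, with Benjamini-Hochberg adjustment over all and a threshold of 0.05. The fit was tested on simulated data. SE is the fold change divided by the square root of F. Per-library values are log2 CPM (prior count 2). Arms were compared by exact permutation. Depth limits low counts.

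Members and gene lists were chosen with earlier results of these data known. Named genes are the 6 highest and 6 lowest called fold changes per comparison with non-overlapping groups and a mean log2 CPM from 3 up, up to 3 (SA) and 2 (sgALAS1) members per list by p, the ends, centromere and read-minimum neighbours, and 3 at each end of the difference; others, such as TEX15, ANGPT1, NDRG1, RPL30, PVT1, GINS4 and the neighbours of deep falls, were named after their values were seen. Alternatives were DESeq2 1.42.0, other scalings, filters, read minimums and segment sizes, a replicate block and leaving out each library; members overlapping no other member were added after seeing the data.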

Additional observations from a re-analysis of the deposited data

Results flagged for a closer look

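At 7 named members the effect of sgALAS1 differed from that of SA by edgeR's quasi-likelihood test of the difference itself, adjusted over all tested genes. The difference, sgALAS1 effect minus SA effect on the log2 scale, was 1.04 for BNIP3L, 1.10 for ZNF395 and 0.995 for CA2 (adjusted p = 0.008956, 0.01594 and 0.01072). It was -2.53 for TPD52 (adjusted p = 0.001743). For NCALD, ENPP2 and SLC39A4 the fitted differences were -6.00, -4.23 and -5.84 (adjusted p = 1.025e-06, 1.841e-06 and 1.118e-06), values that depend on the prior count because NCALD and SLC39A4 had 2 and 3 reads in all of sgALAS1 and ENPP2 was at 0 to 1.11 CPM. In BNIP3L, ZNF395 and CA2 the 2 control groups also differed, by -0.83, -0.67 and 0.63 (sgSCR against vehicle), and the part of this in the difference was not tested.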

How the results depend on the processing

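With other scalings, tests, filters, read minimums or a block, 75 to 87 members were lower with SA and 100 to 116 with sgALAS1, and among the 241 members that overlap no other member 47 and 59. DESeq2 gave 87 and 115. Leaving out 1 library gave 57 to 79 and 76 to 103 lower, 2 to 6 (2 without SA replicate 1) and 4 to 7 higher (4 without sgSCR replicate 2 or sgALAS1 replicate 1, 5 without sgSCR replicate 3 or sgALAS1 replicate 3). The median moved between -0.28 and -0.26 with SA and between -0.38 and -0.30 with sgALAS1 on leaving out 1 library, and was -0.28 with SA without a filter on low counts. The members at which the effects differed were 15 without that filter and 6 to 19 with 1 library left out (19 without vehicle replicate 1). With 1 library left out, the arm difference ranged from -0.0169 to 0.0312 with SA, turning sign without SA replicate 2 (-0.0035), SA replicate 3 (-0.0082) or vehicle replicate 1 (-0.0169), from 0.15 to 0.19 with sgALAS1 and from 0.0755 to 0.1005 over both, where it passed without vehicle replicate 2 (0.10); with members of at least 600 reads it was 0.04, 0.18 and 0.11. The cause of these changes was not tested. Of 21 segments, those lower without overlap numbered 14 to 16 with SA and 18 to 19 with sgALAS1 on leaving out 1 library. With other scalings, filters or read minimums they numbered 11 to 16 and 14 to 20, among 16 to 24 segments. With 10 members a segment they were 25 of 43 with SA and 35 of 43 with sgALAS1. With 40 members a segment they were 9 of 11 and 11 of 11. With the replicate number as a block, 85 members were lower with SA and 116 with sgALAS1; libraries of the same number were not more alike (correlations -0.07 to 0.06) than others (-0.15 to 0.11), so the numbers were not taken to pair them.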
